A study of Mus musculus with 74 samples.

Results

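A set of 9 epithelial genes of gut defence were followed through 31 RNA sequencing libraries of the developing and adult mouse gut: Lcn2, Reg1, Reg3b, Reg3g, Reg4, Retnlb, Saa1, Lyz1 and Pigr. They were chosen by name as antimicrobial and acute phase genes, and all 9 were found by symbol among the 24015 gene symbols of the deposited count table. All 9 passed the filter on low counts in the embryonic and in the adult libraries. The libraries fall into 15 groups of 2, except for 1 group of 3.

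The WT embryonic groups came from CD1 mice given no treatment. Epithelium of forestomach, hindstomach and small intestine was taken on embryonic days (E) 12, 14 and 16, and of small intestine also on E18; the small intestine samples of E12 and E14 are labelled midgut. The libraries labelled deleted at E10 came from Cdx2f/f; Shh-Cre embryos of mixed B6;129 background without treatment, collected at E16 (n = 3). Those labelled deleted at E13 and at E15 came from Cdx2f/f; Villin-Cre embryos of the same mixed background, with 5 mg tamoxifen given by gavage, collected at E16 and E18 respectively (n = 2 each). The adult groups were villi of the distal ileum: Cdx2f/f mice injected with oil as WT, and Cdx2f/f; Villin-Cre mice injected with 1 mg tamoxifen, both for 5 days and killed 3 days after the last injection (n = 2 each, B6;129). Shh-Cre acts in the Shh-expressing endoderm and Villin-Cre in the intestinal epithelium, so the deletion was by design limited to epithelium. In the embryo, strain and Cre go with the genotype and cannot be told apart from it, nor can tamoxifen in the groups labelled deleted at E13 and E15. In the adult, Cre and tamoxifen go with the genotype in the same way.

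CDX2 is the homeodomain transcription factor that gives the posterior endoderm its intestinal identity. The mature intestinal epithelium holds bacteria away from its surface with secreted proteins. Enterocytes make C-type lectins of the regenerating (REG) family, Paneth cells make lysozyme, goblet cells make resistin-like molecule beta, and the polymeric immunoglobulin receptor carries IgA into the lumen. Signals such as interleukin 22 acting through STAT3, and microbial products acting through NF-kappaB, are known to raise several of these genes, and lipocalin 2 and serum amyloid A also belong to the acute phase response.

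Gene counts summed to between 5970227 and 62463167 per library (median 21910062). Cdx2 itself checks the labels in part only. Its level was 184 and 204 CPM (counts scaled to a common library size) in WT E16 small intestine and 16.8, 13.97 and 26.7 CPM in the libraries labelled deleted at E10. It was 198 and 202 CPM in those labelled deleted at E13. It was 359 and 343 CPM in those labelled deleted at E15, against 186 and 193 CPM in WT E18, and 729 and 698 CPM in the libraries labelled adult KO, against 340 and 346 CPM in adult WT. Apart from the E10 group, then, Cdx2 was not lower where the label says knockout, and counts over the whole gene do not separate reads of its deleted part. Every direction given for those groups is that of libraries so labelled. Replicate 3 of the libraries labelled deleted at E10 stands apart from replicates 1 and 2 in 5 of the 9 genes, and the fold changes of the 9 genes there are given with and without it; counts over longer gene lists include it. Nothing in the labels says that replicates came from separate animals, so p-values measure only the spread between these libraries, which may be technical.

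Levels are CPM scaled by the trimmed mean of M-values (TMM), which are not corrected for gene length and so are compared between groups, never between genes. A gene is called higher or lower where edgeR's quasi-likelihood test, adjusted over all genes tested, gave p under 0.05 and the log2 fold change was at least 1 in size. Fold changes are log2 values with their standard error (SE). Where groups are said not to overlap, the share of all genes whose groups do not overlap was not computed. In bulk tissue, fewer cells of a type and less RNA per cell cannot be told apart.

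In WT small intestine the set was low at E12 and E14, most of it rose at E16, and Reg1, Reg3b, Reg3g, Lyz1 and Pigr rose again to E18, while Reg4 held its E16 level. Between E12 and E14 edgeR called only Reg4, which is 1 of 9 genes where 16.2% of all genes tested were called and 11.3% were called higher. From E14 to E16, 8 of 9 genes were called, all higher, against 25.6% of all genes in either direction and 13.7% higher (11.9% lower). From E16 to E18, 5 were called higher and 1 lower, against 42.1% of all genes called, 20.1% higher and 22.1% lower. E12 to E16 cells were released with trypsin and sorted for EpCAM, while E18 villi were released with EDTA, so stage and preparation cannot be told apart between E16 and E18.

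**Figure D1:**
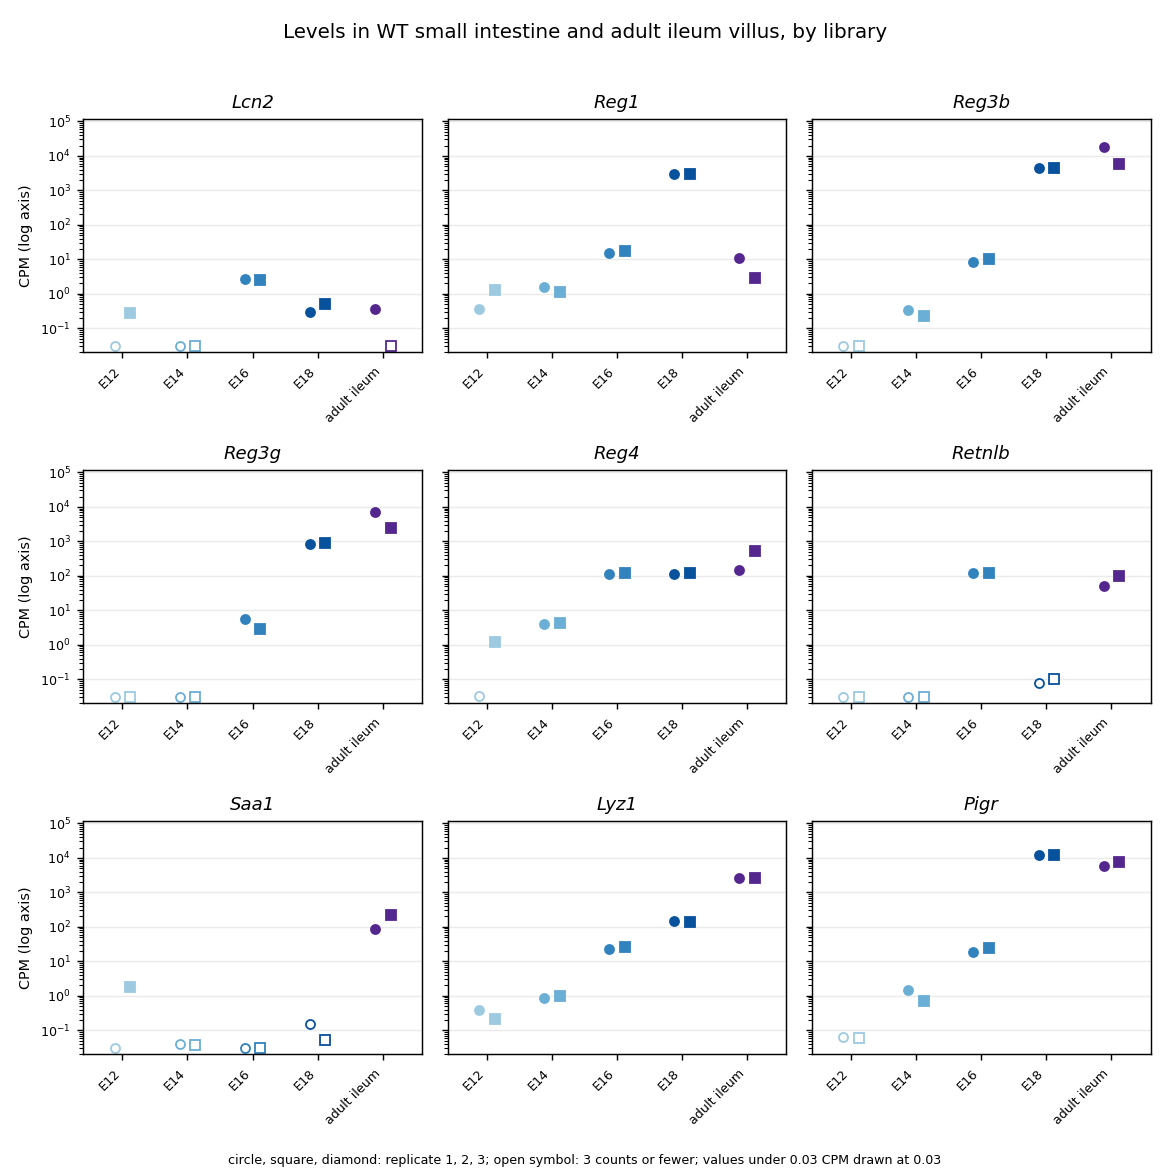
CPM (log axis) of each gene in WT small intestine at E12, E14, E16 and E18 and in WT adult ileum villus, 1 panel per gene and 1 point per library (circle replicate 1, square replicate 2, open symbol 3 counts or fewer, values under 0.03 CPM drawn at 0.03). Reg3b, Reg3g and Pigr climb steeply after E16, Retnlb is high at E16 and in the adult but at 1 and 2 counts at E18, and Saa1 is high only in the adult.

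Reg3b and Reg3g encode secreted lectins that bind bacterial peptidoglycan. Reg3b had 0 counts in both E12 small intestine libraries, 27 and 6 counts at E14 (0.349 and 0.224 CPM), 8.41 and 10.03 CPM at E16, 4412 and 4437 CPM at E18, and 18720 and 5686 CPM in adult ileum. Reg3g had 0 counts in all 4 libraries of E12 and E14, then 5.76 and 2.87 CPM at E16, 849 and 890 CPM at E18, and 7026 and 2485 CPM in the adult. The stages did not overlap for either gene from E14 to E18. From E16 to E18 Reg3b rose by 8.92 (SE 1.76, adjusted p = 3.6e-04) and Reg3g by 7.66 (SE 1.69, adjusted p = 0.00124). The earlier step was less secure: Reg3b rose by 4.89 from E14 to E16 (SE 1.85, adjusted p = 0.0444) and Reg3g was at least 57.3-fold higher, set against a floor of 3 counts per library (adjusted p = 0.0472). Leaving out any 1 of the 4 small intestine libraries of E14 and E16 ended both calls, with adjusted p from 0.0825 to 0.198 for Reg3b and from 0.0668 to 0.232 for Reg3g. Without the libraries labelled deleted at E13 in the fit, which share its estimate of the spread, the adjusted p was 0.0533 and 0.0565.

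These 2 genes sit near each other on mouse chromosome 6 in RefSeq's GRCm38.p6 annotation, Reg3b at chr6:78370885-78373466 and Reg3g at chr6:78466269-78468874, with Reg3d, Reg3a, Reg2 and Reg1 (chr6:78425983-78428668) between them; the 6 genes span 98.0 kb. The 250 bases before their annotated starts are shown because the pair moved together through the series. Capitals mark the longest run of bases that both share, 20 bases ending directly before the start in each gene.
Reg3b, chr6:78370635-78370884, plus strand: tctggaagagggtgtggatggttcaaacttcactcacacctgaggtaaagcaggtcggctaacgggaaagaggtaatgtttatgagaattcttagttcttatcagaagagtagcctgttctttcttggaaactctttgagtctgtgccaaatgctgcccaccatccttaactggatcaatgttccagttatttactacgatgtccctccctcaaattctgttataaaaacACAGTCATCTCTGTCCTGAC
Reg3g, chr6:78468875-78469124, minus strand: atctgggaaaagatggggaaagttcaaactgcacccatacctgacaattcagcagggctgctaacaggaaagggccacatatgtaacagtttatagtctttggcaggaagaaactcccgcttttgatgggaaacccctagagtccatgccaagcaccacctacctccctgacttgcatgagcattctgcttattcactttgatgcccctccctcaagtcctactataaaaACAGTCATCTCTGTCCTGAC
In a global alignment 175 of 254 columns (68.9%) were identical, against a median of 48.4% over the 28 pairs of the 8 members with a promoter in the table. Retnlb is not in the promoter table.

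Motifs were sought on both strands of these 250 base windows. The STAT motif TTCNNNGAA was found in 1 of 8 member promoters, Reg3b, as TTCTTGGAA from -129 to -121, and in 7.02% of all 32851 promoters. A strict and a looser form of the NF-kappaB motif were found in 0 of 8, and in 0.14% and 1.412% of all promoters. The C/EBP motif TTGCNNAA was found in Lcn2, Saa1 and Lyz1, 3 of 8, and in 9.564% of all promoters. For CDX, TTTATTG was found in 0 of 8 (4.204% of all) and TTTATGG in Lcn2 alone (2.426% of all), where it reads CCATAAA from -61 to -55. The GATA motif AGATAA was found in Reg4 (9.988% of all promoters) and the HNF4 motif CAAAGTCCA in 0 of 8 (0.384%). A match is a run of letters, not a shown binding site.

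Reg1 and Reg4 are further secreted lectins of the family, Reg4 being a product of secretory cells. Reg1 had 0.351 and 1.33 CPM at E12, 1.56 and 1.12 CPM at E14, 15.1 and 17.2 CPM at E16, and 3056 and 3038 CPM at E18, and only 11.2 and 2.85 CPM in adult ileum. It rose by 3.55 from E14 to E16 (SE 0.94, adjusted p = 0.00571) and by 7.57 from E16 to E18 (SE 1.02, adjusted p = 5.2e-06), with no overlap at either step. The adult libraries came from another kit and another part of the gut, so their lower Reg1 level was not tested against the embryo. Reg4 had 1 and 40 counts at E12, 3.97 and 4.29 CPM at E14, 112 and 119 CPM at E16, 111 and 119 CPM at E18, and 148 and 521 CPM in the adult. It rose by 2.70 from E12 to E14 (SE 0.63, adjusted p = 0.00349) and by 4.82 from E14 to E16 (SE 0.60, adjusted p = 4.1e-06). Its E18 and E16 levels overlapped, at a difference of 0.01 (SE 0.51, adjusted p = 1). In a fit of the E12 and E14 libraries alone the first step was 2.71 with adjusted p = 0.342, and it ran from 1.77 without E12 replicate 1 to 6.80 without E12 replicate 2.

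Retnlb, the goblet cell product resistin-like molecule beta, which acts against Gram-negative bacteria, fell back after E16. It had 0 counts in the 4 small intestine libraries of E12 and E14, 2482 and 2411 counts at E16 (117 and 123.4 CPM), 1 and 2 counts at E18, and 50.3 and 96.8 CPM in adult ileum. It was at least 1600-fold higher at E16 than at E14 and then 1310-fold lower at E18, with a 95% counting interval of 446 to 6330 (adjusted p = 6.9e-06). Goblet markers as a list went from 0.00626% and 0.00739% of counts at E14 to 0.311% and 0.272% at E16, with Retnlb and Reg4, and moved both ways from E16 to E18. Fcgbp, a mucus protein, went from 0.144% and 0.118% of all counts at E16 to 0.229% and 0.221% at E18 and Zg16 from 0.0115% and 0.00974% to 0.114% and 0.108%. Spink4 went from 0.0281% and 0.0262% to 0.0109% in both, Agr2 from 0.0531% and 0.0490% to 0.0135% and 0.0133%, and Tff3 from 0.0704% and 0.0669% to 0.0522% and 0.0530%. Their part in the Retnlb and Reg4 results was not tested. Mptx2, a pentraxin of the small intestinal epithelium, showed the same order of stages, with 122.9 and 128 CPM at E16, 7.65 and 6.20 CPM at E18, and a log2 change of -4.17 (SE 1.14, adjusted p = 0.00548).

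Lyz1, the Paneth cell lysozyme, had 0.892 and 1.01 CPM at E14, 23.3 and 26.9 CPM at E16, 143 and 136 CPM at E18, and 2600 and 2628 CPM in adult ileum. It rose by 4.76 from E14 to E16 (SE 0.93, adjusted p = 4.4e-04) and by 2.48 from E16 to E18 (SE 0.76, adjusted p = 0.00924); without E16 replicate 1 the second step had adjusted p = 0.067. Paneth markers rose at the first step, from 1.6e-05% and 5.38e-05% of counts to 0.00382% in both libraries. As a list they did not rise at the second (0.00356% and 0.00361%), where members went both ways. Ang4 went from 25 and 22 counts to 358 and 592 and Mmp7 from 11 and 17 to 60 and 82, both called higher. Defa17 went from 277 and 254 counts to 106 and 160 and Defa24 from 371 and 329 to 45 and 61. Their part in the Lyz1 rise was not tested. Lyz2, the lysozyme of macrophages and neutrophils, lies 5.5 kb from Lyz1 in RefSeq and resembles it closely, so reads could be split between them; it rose with Lyz1 from 5.51 and 5.22 CPM at E14 to 51.1 and 52.1 CPM at E16 (3.28, SE 0.77, adjusted p = 0.00213), and fell to 5.97 and 4.41 CPM at E18 while Lyz1 rose.

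Pigr had 2 counts in each E12 library, 1.47 and 0.708 CPM at E14, 18.5 and 23.8 CPM at E16, 12340 and 12430 CPM at E18, and 5735 and 7810 CPM in adult ileum. From E12 to E14 it was 20.6-fold higher without overlap, with a 95% counting interval of 7.85 to 76.6, a step that edgeR did not call (adjusted p = 0.0867) and DESeq2 did (adjusted p = 0.0135). It rose by 4.17 from E14 to E16 (SE 0.91, adjusted p = 0.00124) and by 9.21 from E16 to E18 (SE 1.04, adjusted p = 4.3e-07). Enterocyte markers rose over the same interval from 0.720% and 0.690% to 3.13% and 3.14% of all counts, and their part in the result was not tested.

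The acute phase members Lcn2 and Saa1 stayed low in the small intestine through E18. Lcn2 encodes a protein that binds bacterial iron carriers. It had 0 counts in both E14 small intestine libraries, 58 and 48 counts at E16 (2.74 and 2.46 CPM), 4 and 10 counts at E18 (0.306 and 0.513 CPM), and 4 and 0 counts in adult WT. It was at least 34.5-fold higher at E16 than at E14 (adjusted p = 0.00438), a call that was lost without E14 replicate 1 (adjusted p = 0.0596), and its change of -2.60 to E18 was not called (SE 1.33, adjusted p = 0.115), though a fit of E16 and E18 libraries alone called it (-2.64, SE 0.48, adjusted p = 0.00178). Neutrophil markers held at most 4.89e-06% of counts at E14, 0.0022% to 0.00404% at E16 and 8.0e-05% to 0.000114% at E18. At E12 they held 0.0015% to 0.0022%, where Lcn2 had 0 and 9 counts. Their part in the Lcn2 level was not tested. Saa1, a serum amyloid A protein, had 61 counts in E12 replicate 2 and 0 in replicate 1, and 3 counts or fewer in every other WT embryonic library of the small intestine. In adult WT ileum it stood at 87.8 and 220 CPM, so its expression in this series was almost wholly adult. The nearby gene Saa2 is a near copy, with 48 and 90 counts at E12, and reads may be split between the pair.

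In the E16 stomach another order was seen: Lcn2 was much higher than in the intestine, and Reg4, Retnlb and Pigr were lower. Lyz1 was not called between the organs. Lcn2 had 85.5 and 81.9 CPM in forestomach, 58.1 and 71.1 CPM in hindstomach and 2.74 and 2.46 CPM in small intestine, with no overlap between stomach and intestine. It was 4.98 higher in forestomach (SE 1.13, adjusted p = 0.00218) and 4.62 higher in hindstomach (SE 1.11, adjusted p = 0.00469) than in small intestine. In forestomach against small intestine 5 of 9 genes were called, against 35.0% of all genes (18.6% higher and 16.4% lower), with Lcn2 the only one higher. Among the 4 lower, the Reg1 call (-3.16, SE 1.17, adjusted p = 0.0336) was lost whichever of the 4 libraries was left out (adjusted p 0.0608 to 0.148). In hindstomach against small intestine 4 of 9 were called, against 25.7% of all genes (17.5% higher and 8.10% lower), again with Lcn2 the only one higher.

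**Figure D2:**
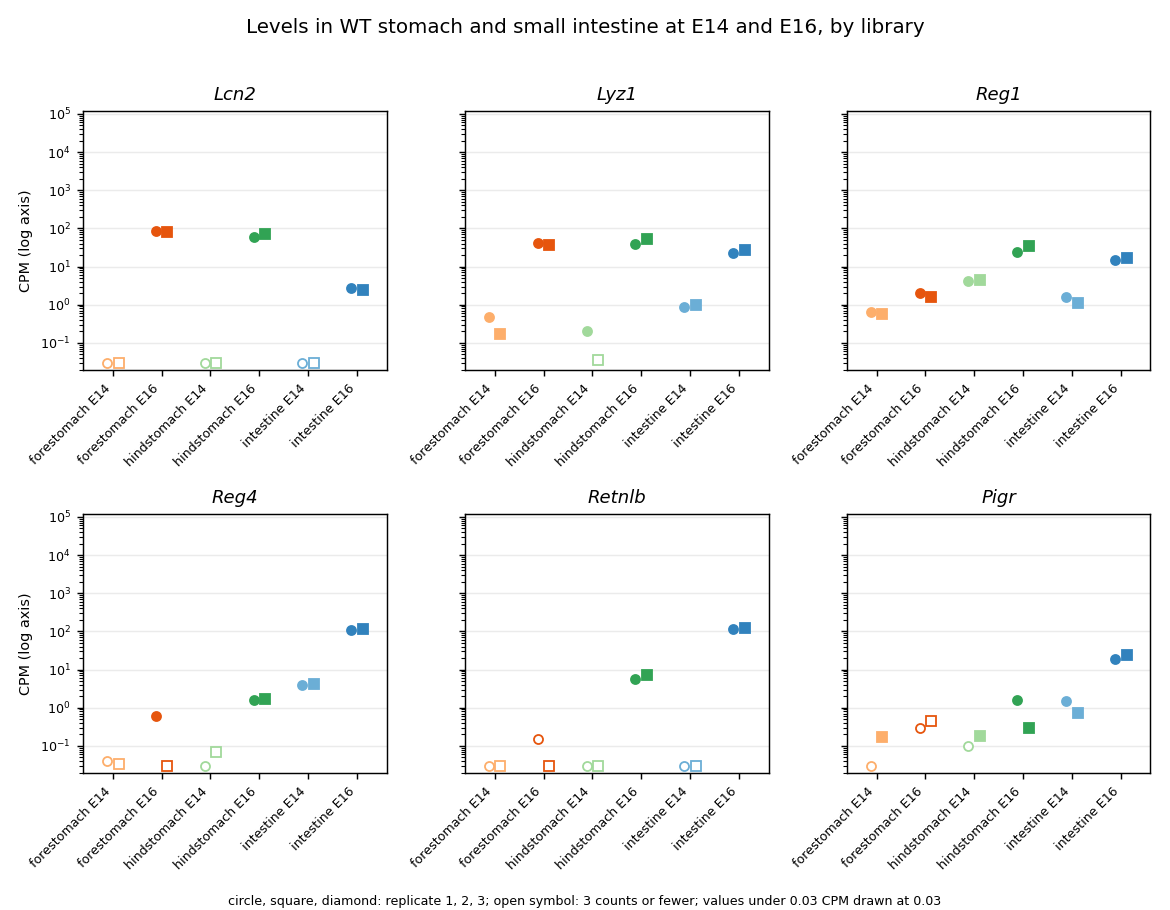
CPM (log axis) of 6 of the genes in WT forestomach, hindstomach and small intestine at E14 and E16, 1 point per library (circle replicate 1, square replicate 2, open symbol 3 counts or fewer, values under 0.03 CPM drawn at 0.03). Lcn2 was at 0 counts in all E14 libraries and highest in the stomach at E16, while Reg4, Retnlb and Pigr were highest in the intestine.

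Reg4 had 4 and 0 counts in E16 forestomach, 1.59 and 1.69 CPM in hindstomach and 112 and 119 CPM in small intestine, a difference of -8.62 (SE 0.88, adjusted p = 1.4e-07) and -6.14 (SE 0.66, adjusted p = 6.3e-07). The size of the first rests on the 4 forestomach counts and ran from -7.63 without forestomach replicate 2 to -14.58 without replicate 1. Retnlb had 1 and 0 counts in forestomach and 5.58 and 7.27 CPM in hindstomach, against 117 and 123.4 CPM in small intestine. Its small intestine level was 1630-fold that of forestomach, with a 95% counting interval of 293 to 64500 (adjusted p = 1.9e-05), and the hindstomach difference was -4.24 (SE 0.84, adjusted p = 0.00125). Pigr had 2 and 3 counts in forestomach and 37 and 7 counts in hindstomach, against 391 and 464 counts in small intestine, 57.1-fold the forestomach level (95% counting interval 24.4 to 176, adjusted p = 0.00273). Small intestine lay above both stomach groups without overlap for these 3 genes, while the forestomach and hindstomach levels of Pigr overlapped (0.296 and 0.439 CPM, and 0.288 and 1.55 CPM). The REG3 lectins were still low at E16: Reg3b had 0.593 and 0.292 CPM in forestomach and 2.64 and 4.52 CPM in hindstomach, and Reg3g 0.741 and 1.46 CPM and 1.09 and 2.18 CPM. All 4 stomach libraries lay below both small intestine libraries in each gene, but no difference was called (Reg3b forestomach -4.40, SE 2.62, adjusted p = 0.18; hindstomach -1.37, SE 1.47, adjusted p = 0.489). Fits of the groups alone called Reg3b in both (adjusted p = 3.4e-04 and 0.0127) and Reg3g in forestomach (adjusted p = 0.0331) but not in hindstomach (adjusted p = 0.0627).

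Reg1 had 24.3 and 33.7 CPM in E16 hindstomach, 15.1 and 17.2 CPM in small intestine and 2.07 and 1.61 CPM in forestomach. Hindstomach lay above small intestine without overlap but was not called (0.83, SE 0.80, adjusted p = 0.437). It was 3.99 lower in forestomach than in hindstomach (a log2 difference of -3.99, SE 1.15, adjusted p = 0.012), where 2 of 9 genes were called, both lower, and 20.1% of all genes (6.27% higher and 13.8% lower), and that call was lost without either forestomach library (adjusted p = 0.079 and 0.085). The other called gene was Retnlb. Reg1 is also known as a product of pancreatic acinar cells. Acinar markers held 0.630% and 0.689% of counts in E16 hindstomach and 0.180% and 0.170% in small intestine, and their part in the Reg1 level was not tested. From E14 to E16, hindstomach Reg1 rose from 4.30 and 4.34 CPM by 2.75 (SE 0.87, adjusted p = 0.0201), with the call lost without either E14 library or without E16 replicate 2 (adjusted p = 0.0807 to 0.115). At E14 acinar markers held 0.192% to 0.197% of counts in hindstomach and 0.0410% to 0.0440% in small intestine, so they rose with Reg1 to E16. In WT E18 small intestine they held 0.00082% to 0.0011%, while Reg1 was higher than at E16. Their part in these changes was not tested.

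Before E16 the stomach held little of the set. Over the 8 stomach libraries of E12 and E14 the highest levels were 5.32 CPM of Reg4 and 1.11 CPM of Retnlb in E12 hindstomach and 4.34 CPM of Reg1 in E14 hindstomach, with replicates of E12 hindstomach at 67 and 188 counts of Reg4 and 38 and 2 counts of Retnlb. The other 6 genes stayed at or below 0.487 CPM, and Lcn2 had 0 counts in all 8.

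Within the stomach, Lcn2 and Lyz1 were the genes that changed in both organs from E14 to E16. In hindstomach 5 of 9 genes were called, all higher, against 22.0% of all genes (16.5% higher and 5.50% lower). In forestomach 2 of 9 were called, both higher, against 37.7% of all genes (20.8% higher and 16.9% lower). Lcn2 had 0 counts in all 4 E14 stomach libraries and was at least 625-fold higher in hindstomach (adjusted p = 2.0e-04) and at least 745-fold higher in forestomach at E16 (adjusted p = 7.2e-05). Lyz1 rose from 0.200 and 0.0356 CPM to 38.0 and 51.9 CPM in hindstomach, by 8.49 (SE 1.27, adjusted p = 4.7e-05), and from 0.487 and 0.172 CPM to 41.6 and 37.9 CPM in forestomach, by 6.93 (SE 1.14, adjusted p = 5.1e-05). Retnlb and Reg4 also rose in hindstomach, Retnlb from 0 counts by at least 62.2-fold and Reg4 from 0 and 2 counts by 47.7-fold (95% counting interval 12.8 to 400). Reg3b went from 0 counts in both E14 hindstomach libraries to 63 and 110 at E16, at least 34.7-fold higher; edgeR did not call it (adjusted p = 0.0956), while DESeq2 and a fit of these groups alone did (adjusted p = 2.8e-04 and 3.9e-04). Reg3g went from 13 and 5 counts to 26 and 53 in hindstomach (2.39, SE 2.37, adjusted p = 0.475) and was called in the fit of these groups alone (adjusted p = 0.0168). Neutrophil markers moved with Lcn2 and Lyz1 in these libraries. All 5 neutrophil markers together held 0.112% and 0.0872% of counts in E16 forestomach, 0.104% and 0.117% in E16 hindstomach, 0.00404% and 0.00220% in E16 small intestine and at most 4.89e-06% in the E14 libraries. Macrophage markers went from 0.00145% and 0.00137% to 0.0614% and 0.0418% in forestomach and from 0.000904% and 0.00111% to 0.0409% and 0.0496% in hindstomach. Lyz2, the near copy of Lyz1, went from 1.14 and 1.03 CPM to 390 and 321 CPM in forestomach (8.34, SE 1.00, adjusted p = 1.2e-06) and from 0.533 and 0.605 CPM to 367 and 469 CPM in hindstomach (9.51, SE 1.06, adjusted p = 1.9e-06). The part of these cells and of Lyz2 reads in the Lcn2 and Lyz1 results was not tested. E16 forestomach also held blood markers at 1.51% and 1.96% of counts beside 0.0826% and 0.0739% for general epithelial markers. Mesenchyme and muscle markers went from 0.0110% and 0.0107% at E14 to 1.89% and 2.32% at E16 in forestomach, from 0.00611% and 0.0068% to 0.791% and 0.814% in hindstomach, and from 0.0279% and 0.0351% to 0.136% and 0.148% in small intestine; their part in the results at E16 was not tested.

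**Figure D3:**
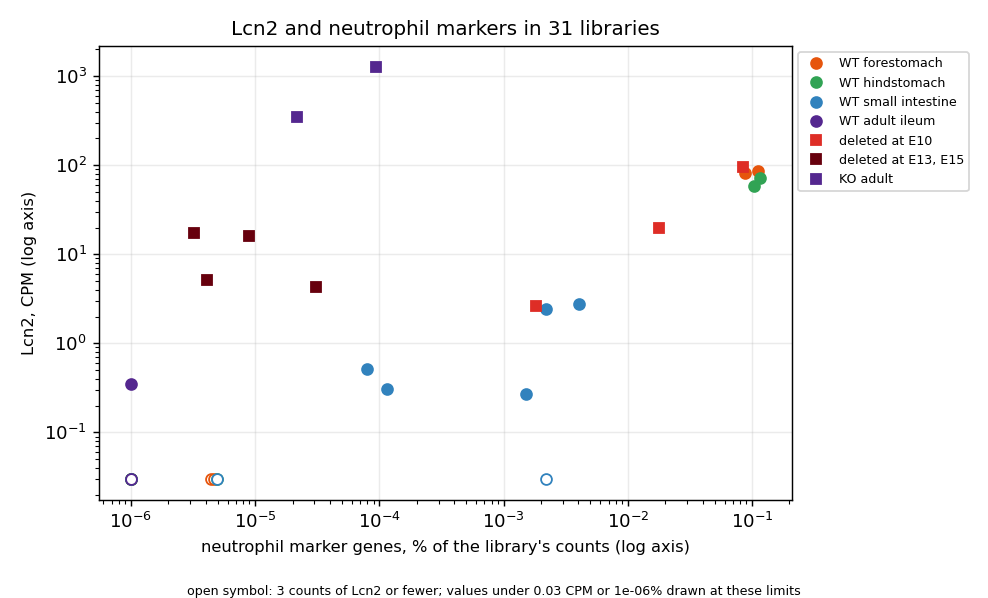
Lcn2 (CPM, log axis) against the summed share of 5 neutrophil marker genes (percent of the library's counts, log axis) in 31 libraries, with circles for WT and squares for libraries labelled Cdx2 knockout, open symbols for 3 counts of Lcn2 or fewer, and values below the axis limits drawn at them. The stomach libraries of E16 lie at the upper right, and the 2 adult KO libraries, with the highest Lcn2, lie at the left with almost no neutrophil counts.

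In the libraries labelled deleted at E10, Reg1, Reg3b, Reg3g and Lyz1 stood far above WT E16 small intestine in replicates 1 and 2 and much lower in replicate 3, while Reg4 and Retnlb were low in all 3. Of the 9 genes, 7 were called, 5 higher and 2 lower, in a comparison that called 51.5% of all genes, 23.9% higher and 27.6% lower. Without replicate 3 all 9 were called, 7 higher and 2 lower, against 52.2% of all genes in that fit.

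**Figure D4:**
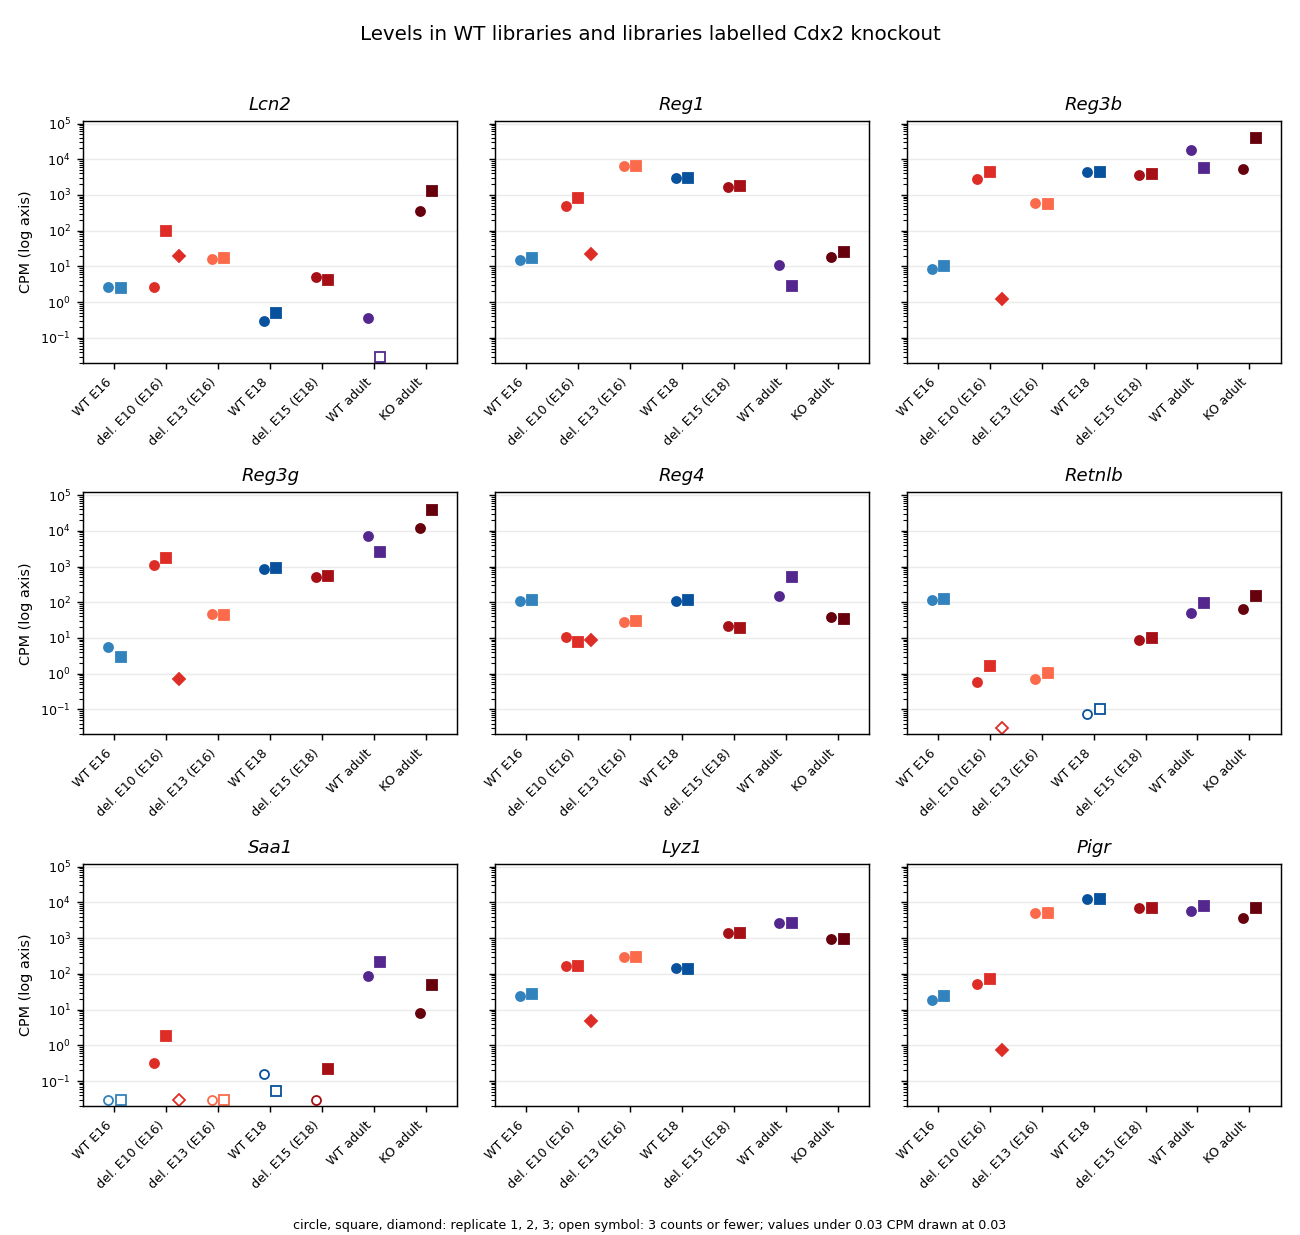
CPM (log axis) of each gene in WT libraries (blue, purple) and libraries labelled Cdx2 knockout (reds) at E16, E18 and in the adult, 1 point per library (circle, square and diamond for replicates 1, 2 and 3, open symbol 3 counts or fewer, values under 0.03 CPM drawn at 0.03). The diamond of the group deleted at E10 lies below its other libraries in Reg1, Reg3b, Reg3g, Lyz1 and Pigr.

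Reg3b had 2756, 4434 and 1.20 CPM in the libraries labelled deleted at E10 against 8.41 and 10.03 CPM in WT, and Reg3g 1111, 1742 and 0.719 CPM against 5.76 and 2.87 CPM. In both genes replicates 1 and 2 lay far above WT and replicate 3 below it, so that the groups overlapped. The log2 fold change was 7.98 for Reg3b (SE 1.68, adjusted p = 4.9e-04) and 7.74 for Reg3g (SE 1.67, adjusted p = 8.4e-04). Without replicate 3 these were 8.57 (SE 0.41, adjusted p = 2.9e-11) and 8.32 (SE 0.45, adjusted p = 6.6e-10). Reg1 had 477, 833 and 22.5 CPM against 15.1 and 17.2 CPM, with replicate 3 still above WT; it was 4.74 higher (SE 0.88, adjusted p = 1.3e-04), and 5.30 higher without replicate 3. Lyz1 had 163, 164 and 4.67 CPM against 23.3 and 26.9 CPM, 2.11 higher with overlap (SE 0.71, adjusted p = 0.0148); the call was lost without either WT library (adjusted p = 0.0936 and 0.0686) and in a fit of these groups alone (adjusted p = 0.114), and without replicate 3 the value was 2.67 (adjusted p = 1.3e-08). Paneth markers were split alike, at 0.00574%, 0.0087% and 0.000695% of counts against 0.00382% in both WT libraries, and Lyz2 had 17.2, 252 and 59.5 CPM against 51.1 and 52.1 CPM; their part in the Lyz1 result was not tested.

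Pigr followed the same split, with 51.9, 73.5 and 0.719 CPM against 18.5 and 23.8 CPM in WT. It was not called, at 0.98 (SE 0.71, adjusted p = 0.241), and was called without replicate 3, at 1.53 (SE 0.29, adjusted p = 1.7e-04). Saa1 had 5, 23 and 0 counts against 0 and 0, which is too few for more than a lower bound of 4.92-fold (adjusted p = 0.0528, and 0.0339 without replicate 3). Lcn2 was split another way: 2.64, 96.0 and 19.8 CPM against 2.74 and 2.46 CPM, so that replicate 1 lay within the WT range. Its log2 fold change was 3.88 (SE 1.05, adjusted p = 0.00494), and 4.204 without replicate 3 (adjusted p = 0.00409). Neutrophil markers were split alike, at 0.00182%, 0.0849% and 0.0178% of counts, with S100a8 at 190, 7766 and 980 counts, and their part in the Lcn2 result was not tested.

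Reg4 and Retnlb fell without overlap. Reg4 had 10.6, 7.67 and 8.75 CPM against 112 and 119 CPM, a change of -3.72 (SE 0.50, adjusted p = 2.0e-06). Retnlb had 9, 20 and 0 counts against 2482 and 2411, a change of -7.31 (SE 0.85, adjusted p = 3.1e-06). Both directions were the same without replicate 3, at -3.70 and -6.84. Goblet markers held 0.134% to 0.204% of counts here and 0.311% and 0.272% in WT E16, and enterocyte markers 0.0764% to 0.101% against 0.720% and 0.690%. Neither list was of 1 direction. Of the goblet list, Agr2 was at 0.0871% to 0.131% against 0.0531% and 0.0490%, and Zg16 had 3633, 4978 and 42 counts against 2111 and 1625. Of the enterocyte list, Sis had 963, 916 and 0 counts against 142 and 125, while its other members were lower. Gastric markers held 0.142% to 0.366% of counts against 0.000328% and 0.00024% in WT, led by Gkn1, a gastrokine of the stomach lining, with 20544, 54682 and 9140 counts against 6 and 0. The part of these markers in the results was not tested.

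After deletion labelled E13, Reg1, Reg3b, Lyz1 and Pigr were far above WT E16 small intestine, Lcn2 was moderately higher, and Reg4 and Retnlb were lower. Of the 9 genes, 5 were called higher and 2 lower, against 39.5% of all genes (18.7% higher and 20.8% lower). Reg1 had 6660 and 6442 CPM against 15.1 and 17.2 CPM, 8.68 higher (SE 1.07, adjusted p = 1.9e-06), the highest Reg1 level of all 15 groups. Pigr had 4960 and 4952 CPM against 18.5 and 23.8 CPM, 7.89 higher (SE 0.99, adjusted p = 1.7e-06). Reg3b had 586 and 561 CPM against 8.41 and 10.03 CPM, 5.97 higher (SE 1.56, adjusted p = 0.00394), and Lyz1 301 and 298 CPM against 23.3 and 26.9 CPM, 3.59 higher (SE 0.79, adjusted p = 8.0e-04). The groups did not overlap for Reg1, Pigr, Reg3b or Lyz1. Paneth markers as a list were not higher there, at 0.00318% and 0.0036% of counts against 0.00382% in both WT libraries. Members of the list went both ways. Mmp7, which was called higher, had 231 and 224 counts against 11 and 17, and Ang4 120 and 111 against 25 and 22. Defa24 had 240 and 245 counts against 371 and 329. Their part in the Lyz1 result was not tested. Gastric markers held 0.161% and 0.154% of counts against 0.000328% and 0.00024% in WT, with Gkn1 at 30930 and 27217 counts against 6 and 0, and their part in the results was not tested.

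Reg3g had 47.8 and 44.6 CPM in the libraries labelled deleted at E13 against 5.76 and 2.87 CPM in WT, without overlap, but it was not called at 3.43 (SE 1.46, adjusted p = 0.0603); in a fit of these 4 libraries alone the adjusted p was 4.4e-05. Lcn2 had 15.9 and 17.2 CPM against 2.74 and 2.46 CPM, 2.68 higher (SE 1.04, adjusted p = 0.0426), and lost the call when any 1 of the 4 libraries was left out (adjusted p 0.0886 to 0.16) and with DESeq2 (adjusted p = 0.106). Neutrophil markers were at or near 0 here, with S100a8 at 1 and 0 counts. Reg4 fell from 112 and 119 CPM to 28.8 and 30.3 CPM, by 1.95 (SE 0.53, adjusted p = 0.0044). Retnlb fell from 2482 and 2411 counts to 19 and 25, a change of -7.07 (SE 0.98, adjusted p = 2.9e-05). Goblet markers as a list went the other way, at 0.675% and 0.663% of counts against 0.311% and 0.272%, with the mucin gene Muc2 at 22474 and 20729 counts against 637 and 437. The list was not of 1 direction. Agr2 was lower, at 5753 and 5242 counts against 9712 and 8170 in WT E16, and Tff3 was lower as a share of counts. The part of these markers in the results was not tested.

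Several of these directions depend on the control. The libraries labelled deleted at E13 carried enterocyte markers at 2.33% and 2.40% of counts, against 0.720% and 0.690% in WT E16 and 3.13% and 3.14% in WT E18. Alpi, the intestinal alkaline phosphatase, made up most of this, at 1.53% and 1.60% of counts against 0.0734% and 0.0676% in WT E16. Without Alpi the list held 0.798% and 0.800%, against 0.646% and 0.623% in WT E16 and 2.84% in both WT E18 libraries. Against WT E18 small intestine 3 of 9 genes were called, where 16.1% of all genes were. Reg1 was then 1.11 higher (adjusted p = 0.342) and Lyz1 1.10 higher (adjusted p = 0.303), neither called, while Reg3b turned to -2.94 (adjusted p = 0.123), Reg3g to -4.23 (adjusted p = 0.038), Pigr to -1.32 (adjusted p = 0.222) and Retnlb to 3.20 (adjusted p = 0.101). Collected stage and deletion cannot be told apart from marker content in that second comparison.

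At E18, after deletion labelled E15, Lyz1 and Retnlb were above WT E18 and Reg4 below it, and Reg1, Reg3b, Reg3g and Pigr were not called. Of the 9 genes, 3 were called, against 17.5% of all genes (7.79% higher and 9.70% lower). Lyz1 had 1395 and 1385 CPM against 143 and 136 CPM, 3.33 higher (SE 0.77, adjusted p = 0.00257). Retnlb had 190 and 285 counts against 1 and 2, 105-fold higher with a 95% counting interval of 35.6 to 510 (adjusted p = 7.2e-04). Paneth markers held 0.0212% and 0.0220% of counts against 0.0036% in WT, and goblet markers 0.783% and 0.721% against 0.455% and 0.442%, and their part in these results was not tested. Reg4 had 21.2 and 19.4 CPM against 111 and 119 CPM, a change of -2.49 (SE 0.54, adjusted p = 0.00153). The groups did not overlap for these 3 genes.

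Of the other 6 genes at E18, Saa1 had too few counts to compare (0 and 6 against 2 and 1, with overlap), and none of the rest was called. Reg1 had 1679 and 1742 CPM against 3056 and 3038 CPM (-0.82, SE 0.77, adjusted p = 0.482), Reg3b 3715 and 3753 CPM against 4412 and 4437 CPM (-0.23, SE 1.24, adjusted p = 0.976), and Reg3g 507 and 532 CPM against 849 and 890 CPM (-0.73, SE 1.23, adjusted p = 0.744). Pigr had 7033 and 7073 CPM against 12340 and 12430 CPM (-0.80, SE 0.73, adjusted p = 0.471). In these 4 genes both labelled knockout libraries lay below both WT libraries, and the SE comes from a spread shared over all 13 embryonic groups. Replicates of these groups differed little, so a lack of overlap says little here. Lcn2 had 5.11 and 4.27 CPM against 0.306 and 0.513 CPM, 3.47 higher but not called (SE 1.30, adjusted p = 0.0585), and called in a fit of these 4 libraries alone (adjusted p = 9.4e-28). Reg3a, a close relative of Reg3b and Reg3g, did not follow them: it had 5.49 and 6.32 CPM against 665 and 663 CPM, a change of -6.80 (SE 0.77, adjusted p = 3.1e-05).

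In adult ileum, Lcn2 was the gene that changed most: 352 and 1284 CPM in the libraries labelled KO, or 5509 and 11918 counts, against 4 and 0 counts in WT. Its fitted log2 fold change was 12.06 (SE 1.24, adjusted p = 0.00497), a size that rests on the 4 WT counts. Neutrophil markers were at 0 in WT and at most 9.47e-05% of counts in the libraries labelled KO, with S100a8 at 4 and 8 counts. Of the 9 genes, 3 were called, against 20.4% of all genes tested. The other 2 were lower: Reg4 had 39.3 and 33.3 CPM against 148 and 521 CPM (-3.33, SE 0.65, adjusted p = 0.0204), and Lyz1 943 and 946 CPM against 2600 and 2628 CPM (-1.59, SE 0.14, adjusted p = 0.00381). The Reg4 call was lost without either KO library (adjusted p = 0.112 and 0.109), and the Lyz1 call in a fit of all 31 libraries (-1.47, adjusted p = 0.13). Paneth markers held 0.0765% and 0.113% of counts against 0.187% and 0.303% in WT. Ang4, an angiogenin of Paneth cells, carried most of this difference, with 2530 and 2182 counts against 15981 and 30886; without Ang4 the list held 0.0655% and 0.0980% against 0.0886% and 0.124%, with overlap. Mmp7, the protease that processes Paneth cell defensins, went the other way (2.15, SE 0.12, adjusted p = 0.00153). The part of these markers in the Lyz1 result was not tested.

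The other 6 genes were not called in the adult. Reg3b had 5499 and 40190 CPM in the libraries labelled KO against 18720 and 5686 CPM in WT, with overlap (0.79, SE 1.05, adjusted p = 0.588). Reg3g had 11720 and 37110 CPM against 7026 and 2485 CPM, without overlap but not called (2.25, SE 0.78, adjusted p = 0.083). Its value was positive whichever library was left out, from 1.17 to 3.18, and it was called without a filter on low counts (2.28, adjusted p = 0.0462). Saa1 had 7.92 and 49.4 CPM against 87.8 and 220 CPM (-2.57, SE 0.96, adjusted p = 0.0987), Reg1 18.3 and 25 CPM against 11.2 and 2.85 CPM (1.51, SE 0.64, adjusted p = 0.129), Retnlb 63.4 and 155 CPM against 50.3 and 96.8 CPM (0.44, SE 0.53, adjusted p = 0.549), and Pigr 3761 and 6888 CPM against 5735 and 7810 CPM (-0.47, SE 0.37, adjusted p = 0.368). Reg1 was called without WT replicate 1 (2.80, adjusted p = 0.0168). Reg3a was again lower, with 5.17 and 5.82 CPM against 187 and 27.7 CPM (-4.41, SE 1.00, adjusted p = 0.0296).

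**Figure D5:**
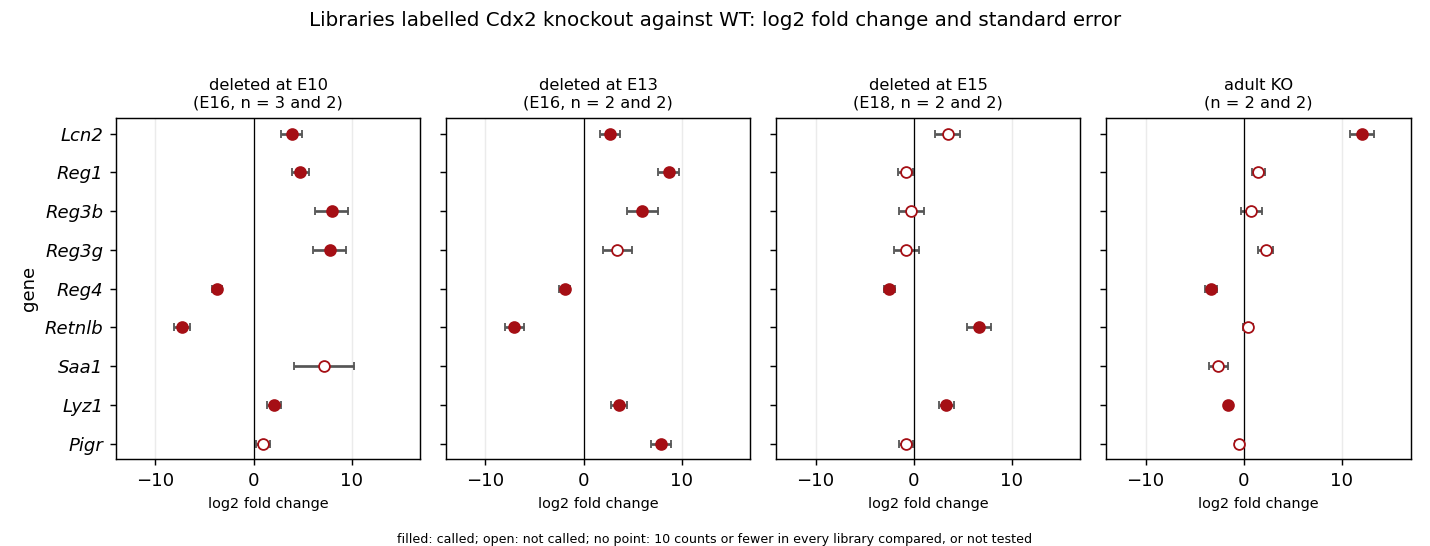
Log2 fold change (points) and standard error (bars) of each gene in libraries labelled Cdx2 knockout against WT, 1 panel per comparison, filled where called and open where not, with no point where every library compared had 10 counts or fewer. Reg4 lies left of 0 and filled in all 4 panels, Retnlb moves from far left at E10 and E13 to the right at E15, and Lyz1 lies right of 0 in the 3 embryonic panels and left of it in the adult; the Retnlb point at E15 and the Lcn2 point in the adult rest on 4 WT counts or fewer.

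Set side by side, Reg4 was called lower in all 4 comparisons, at -3.72, -1.95, -2.49 and -3.33 for the groups labelled deleted at E10, E13, E15 and adult KO; the first 2 share their WT libraries. It was lower in every labelled knockout library than in every WT library of its comparison. Enteroendocrine markers were also lower at E10 (0.000439%, 0.000578% and 0.00361% of counts against 0.0437% and 0.0373%), at E15 (0.0154% and 0.0151% against 0.0409% and 0.0406%) and in the adult (0.00332% and 0.00262% against 0.019% and 0.0115%), but not at E13 (0.0531% and 0.0529%). At E13 that held for the sum only, and members went both ways. Chga had 6261 and 5904 counts against 680 and 786 in WT E16. Neurod1 had 47 and 43 counts against 163 and 210, and Neurog3 16 and 17 against 224 and 129. The part of these markers in the Reg4 result was not tested. Lcn2 had a positive fold change in all 4 and was called in 3, with overlap at E10. Lyz1 changed direction: its adult change lay below its change at E15 (a log2 difference of -4.78, SE 1.01, adjusted p = 0.00374), a test added after the values were seen, in which 2 of 9 genes and 6.65% of all genes were called (4.07% higher and 2.58% lower). Retnlb was lower after deletion labelled E13 and higher after deletion labelled E15, and the difference of these effects was -13.72 (SE 1.52, adjusted p = 4.1e-06). In that comparison of effects 4 of 9 genes were called, 3 higher and 1 lower, against 37.9% of all genes (19.8% higher and 18.1% lower). Between the effects at E10 and E15, 4 of 9 were called, 3 higher and 1 lower, against 41.1% of all genes (19.7% higher and 21.4% lower). Without E10 replicate 3 Pigr was called as well (2.33, SE 0.40, adjusted p = 8.0e-05), 5 of 9 genes against 42.4% of all genes.

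The 2 groups collected at E16 also differed from each other. Between them 6 of 9 genes were called, 4 higher and 2 lower at E13, against 57.4% of all genes (29.3% higher and 28.1% lower). Pigr was 6.92 higher (SE 0.79, adjusted p = 2.0e-07) and Reg1 3.93 higher (SE 0.73, adjusted p = 1.0e-04) in the libraries labelled deleted at E13 than in those labelled deleted at E10. Reg3g was 4.31 lower (a difference of -4.31, SE 1.37, adjusted p = 0.0117), although replicate 3 of the E10 group, at 0.719 CPM, lay below both E13 libraries. That call was lost without either library labelled deleted at E13 (adjusted p = 0.0732 and 0.0775) and in a fit of these groups alone (adjusted p = 0.109). Without E10 replicate 3 the differences were 6.36 for Pigr, 3.37 for Reg1 and -4.90 for Reg3g, and Reg3b was called as well (-2.60, SE 0.31, adjusted p = 1.0e-06). Genotype differs as well here, Shh-Cre without treatment against Villin-Cre with tamoxifen, and cannot be told apart from the time of deletion.

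The receptors and signalling genes upstream of this set were followed as a list of 33, of which 32 were tested. From E14 to E16 in WT small intestine 16 rose and 1 fell, with a median log2 change of 1.55 against -0.085 over all genes, of which 13.7% rose and 11.9% fell. In the libraries labelled deleted at E10, 2 were higher and 20 lower, with a median of -1.89 against -0.10 over all genes, of which 23.9% were higher and 27.6% lower. Immune, macrophage and mesenchyme markers moved the same way at both steps. Immune markers went from 0.00369% and 0.00356% of counts at E14 to 0.0160% and 0.0165% at E16, and were at 0.00193% to 0.00328% after deletion labelled E10. Macrophage markers went from 0.00822% and 0.00889% to 0.016% and 0.0153%, and were at 0.00187% to 0.00594%, and mesenchyme markers, given above for WT, were at 0.00751% to 0.0112%. Their part in the list's changes was not tested. Il22ra1, the epithelial chain of the interleukin 22 receptor, had 0.580, 1.78 and 3.00 CPM in the libraries labelled deleted at E10 against 19.3 and 16.6 CPM in WT E16 (-3.50, SE 0.48, adjusted p = 3.0e-06). Replicates 1 and 2, in which Reg3b and Reg3g were high, had the lowest Il22ra1 of the 3. In the libraries labelled deleted at E13, 10 of the list were higher and 7 lower, against 18.7% and 20.8% of all genes, with Il22ra1 at 259 and 258 CPM (3.86, SE 0.47, adjusted p = 1.3e-06). Socs3, a feedback inhibitor induced by STAT3, fell in both: 7.42, 8.72 and 8.39 CPM for E10 and 31.4 and 31.1 CPM for E13, against 107 and 121 CPM in WT (-3.85 and -1.85, adjusted p = 5.4e-11 and 3.2e-06).

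Among 28 antimicrobial effectors, which include 4 of the 9 genes, 24 were tested in the embryo. From E14 to E16 in small intestine 16 rose and 1 fell (13.7% and 11.9% of all genes), and from E16 to E18, 9 rose and 5 fell (20.1% and 22.1% of all genes). After deletion labelled E10, 14 were higher and 4 lower, with a median log2 change of 2.68 against -0.10 over all genes (23.9% higher and 27.6% lower). The 14 include S100a8, S100a9 and Camp, which neutrophils make and which were highest in replicate 2, where neutrophil markers were highest (Camp 47, 2770 and 324 counts against 15 and 40 in WT). After deletion labelled E13, 10 were higher and 5 lower, with a median of 1.97 against -0.048 over all genes (18.7% higher and 20.8% lower). After deletion labelled E15, 9 were higher and 2 lower, with a median of 1.28 against 0 over all genes (7.79% higher and 9.70% lower). In adult KO libraries 5 of 20 were higher and 4 lower, with a median of -0.31 against 0.006 over all genes, of which 20.4% were called in either direction. Ltf, the iron-binding lactoferrin, had 29.5 and 76.9 CPM in the libraries labelled adult KO against 1.32 and 1.504 CPM (5.10, SE 0.61, adjusted p = 0.00661).

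The acute phase list held 19 genes, of which 15 were tested in the embryo and 9 in the adult. In adult ileum 5 of 9 were higher in the libraries labelled KO (Lcn2, Hpx, Fga, C3 and Lbp) and 0 lower, with a median of 4.88 against 0.006 over all genes, of which 8.41% were higher. C3, the central complement component, had 421 and 560 CPM against 2.20 and 3.32 CPM (7.34, SE 0.31, adjusted p = 9.1e-04). At E15, 4 of 15 were higher and 0 lower, against 7.79% and 9.70% of all genes, C3 among them with 39.5 and 39.4 CPM against 0.995 and 0.769 CPM (5.51, SE 0.91, adjusted p = 1.5e-04). At E10 only Lcn2 was higher and 4 were lower (23.9% and 27.6% of all genes), and at E13, 4 were higher and 4 lower (18.7% and 20.8%). Saa1 shared the list but had the opposite sign in the adult, as given above. Of the liver markers Ttr, the thyroid hormone carrier transthyretin, moved with these genes in the adult and at E15. It had 10107 and 2207 counts in the libraries labelled adult KO against 7 and 4, and 11487 and 14052 at E15 against 35 and 56. It made up nearly the whole of the liver list there (0.0442% and 0.0151% of counts in the adult, 0.0476% and 0.0433% at E15), while Alb, the albumin gene, was at 0 in both adult KO libraries and at 10 and 12 counts at E15 against 7 and 10 in WT E18. Ttr was also higher at E10 (7484, 10849 and 7009 counts against 724 and 624 in WT E16) and at E13 (3646 and 3472), where the acute phase list did not rise as a whole. The part of this marker in the results was not tested.

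Ranked by their mean over the 15 groups, the genes peaked in different places. Lcn2 was highest in the adult KO libraries (818 ± 659 CPM, SD, n = 2), followed by E16 forestomach (83.7 ± 2.6), E16 hindstomach (64.6 ± 9.2) and the libraries labelled deleted at E10 (39.5 ± 49.7, n = 3), of which the last overlapped both stomach groups. Reg1 peaked in the libraries labelled deleted at E13 (6551 ± 154 CPM), then WT E18 (3047 ± 13) and the libraries labelled deleted at E15 (1711 ± 45), all apart from each other. Reg3b and Reg3g peaked in the adult, where the KO and WT libraries of Reg3b overlapped. Reg4 peaked in WT adult ileum (334 ± 264 CPM), followed by WT E16 (115 ± 5) and WT E18 (115 ± 6), which overlapped. Retnlb peaked in WT E16 intestine (120 ± 4 CPM) and adult KO (109 ± 65), which overlapped, Saa1 in adult WT (154 ± 94 CPM), Lyz1 in adult WT (2614 ± 20 CPM) ahead of the libraries labelled deleted at E15 (1390 ± 7), and Pigr in WT E18 (12390 ± 66 CPM).

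The likeness of these patterns was measured as Pearson's r between log2 CPM means over the 15 groups, among 17305 genes; groups share kits and stages, so it is a description only. Reg3b and Reg3g ran closest together of the members (r = 0.98), followed by Reg3b with Pigr (0.97), and by Reg3b with Lyz1 and Reg3g with Pigr (both 0.92). Reg1 and Saa1 had the least in common (-0.06). Outside the set the closest gene was Cyp4f14 for Pigr (0.992), Fam3b for Reg3b (0.99), Noxo1 for Reg3g (0.977), Zbtb7a for Lyz1 (0.971), Fgf15 for Saa1 (0.959), 2010002M12Rik for Reg4 (0.944), Cyp2c66 for Reg1 (0.929), Il1rn for Lcn2 (0.925) and Mptx2 for Retnlb (0.885).

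Relatives of the members were counted as well. The labels do not state whether counting used the strand or how reads with several matches were treated. Lyz1 and Lyz2, and Saa1 and Saa2, are near copies, so some reads may have been assigned to the other gene of a pair. The transcripts of Reg3b and Reg3g were not compared, so this is not known for them. Reg2 had at most 82 counts in any library, with 13, 82 and 0 counts after deletion labelled E10 and 65 and 66 after deletion labelled E13. Reg3d had at most 57, Saa2 at most 90, Saa3 at most 52 and Retnla at most 23 counts. Retnlg, a neutrophil relative of Retnlb, had 62.5 and 45.9 CPM in E16 forestomach, 37.0 and 33.3 CPM in hindstomach and 2.60 and 3.53 CPM in small intestine, the reverse of the order of Retnlb.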

How the data were processed

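The authors deposited 1 table of whole-number read counts per gene for the 31 RNA libraries; per the submitters' processing notes STAR 2.5.3a, HTSeq and the mouse build mm9 were used in the series. Per the labels' protocols, reads were single-end, embryonic libraries were made with SMARTer v4 and adult libraries with TruSeq. The 43 ATAC-seq and ChIP-seq samples, and 2 columns that match no sample given here, were not used. Each of the 4 adult columns has 2 blank cells, which were closed up; none of the 9 genes moved with that.

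Counts were tested with edgeR 4.0.16 (R 4.3.3): TMM scaling, filterByExpr with a minimum count of 10, and quasi-likelihood tests with Benjamini-Hochberg adjustment over all genes. The 27 embryonic libraries of 13 groups were fitted together (17239 genes, with a spread pooled over groups), the 4 adult libraries apart (12444 genes). The difference between the adult and E15 effects came from a fit of all 31 libraries (17305 genes). CPM were computed with TMM over all 31 libraries. Folds against groups at 0 counts use a floor of 3 counts per library, and ratios with 1 to 3 counts an exact 95% interval; without molecular identifiers both cover counting error only. On simulated data the embryonic test recovered 200 of 200 changed genes for deletion at E10 (16305 genes, 10 false calls) and the adult test 199 of 200 (12364 genes, 10 false calls). The simulation gave every gene the same spread and changed only well counted genes, by large amounts. It does not show how the tests do on low counts or on replicates as uneven as those labelled deleted at E10.

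The genes named are the 9 members, their close relatives, Cdx2, the gene outside the set most like each member, some cell type markers, and genes called in the lists of related genes, among them those with the largest fold change. The members and lists were chosen with earlier results of these data known. Promoter sequences and gene positions are RefSeq's (GRCm38.p6), not the build of the counts; 8 of 9 members matched. Replicate libraries of the E18 WT, E13 and E15 groups differed little beyond counting noise (chi-square per degree of freedom 1.53, 2.48 and 5.02, against 9.39 to 132 elsewhere) and were counted separately. Alternatives tried were DESeq2 1.42.0, RLE scaling, other filters and fits, a replicate block and leaving out each library.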

Additional observations from a re-analysis of the deposited data

Results flagged for a closer look

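The effect of a deletion labelled with 1 stage differed from that at another stage, by a test of the difference itself, in 16 cases. Between the effects at E13 and at E15 the log2 difference was 9.5 for Reg1 (SE 1.27, adjusted p = 6.6e-06), 8.69 for Pigr (SE 1.19, adjusted p = 6.6e-06), 6.20 for Reg3b (SE 1.93, adjusted p = 0.0143) and -13.72 for Retnlb (SE 1.52, adjusted p = 4.1e-06). The Reg3b case was lost without either WT E16 library and without either library labelled deleted at E15 (adjusted p 0.0535 to 0.0615). These values carry over the dependence on the WT stage given above, since the effect at E13 was taken against WT E16.

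Between the effects at E10 and at E15 the difference was 5.56 for Reg1 (SE 1.14, adjusted p = 4.8e-04), 8.22 for Reg3b (SE 1.98, adjusted p = 0.00224), 8.47 for Reg3g (SE 2.01, adjusted p = 0.00245) and -13.95 for Retnlb (SE 1.47, adjusted p = 1.9e-06); 4 of 9 genes were called, against 41.1% of all genes. The effect at E10 was also taken against WT E16 and that at E15 against WT E18, and WT itself changed between these stages by 7.57 for Reg1, 8.92 for Reg3b, 7.66 for Reg3g and, as a fitted value, -10.27 for Retnlb. In the lectins Reg1, Reg3b and Reg3g, replicate 3 of the E10 group lay far below replicates 1 and 2; without it the differences were 6.12, 8.80 and 9.05, and that of Retnlb -13.49.

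Between the adult effect and the effect at E15 the difference was -4.78 for Lyz1 (SE 1.01, adjusted p = 0.00374) and -6.06 for Retnlb (SE 1.37, adjusted p = 0.00976); the Retnlb case, which rests on 1 and 2 counts in WT E18, was lost without either WT E18 library (adjusted p = 0.059 and 0.0774).

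From the E10 to the E13 group the difference was 3.93 for Reg1, 6.92 for Pigr, -4.31 for Reg3g, 1.77 for Reg4 (SE 0.48, adjusted p = 0.003), 1.48 for Lyz1 (SE 0.64, adjusted p = 0.0485) and, as a fitted value that is no measure of size, -7.22 for Saa1 (SE 2.94, adjusted p = 0.0424), which was at least 6.06-fold lower. Saa1 had 0 counts in both E13 libraries and 5, 23 and 0 in those of E10, and was lost without E10 replicate 2 or either E13 library (adjusted p 0.151 to 0.157) and with DESeq2 (0.0893). Lyz1 was lost without either E13 library (adjusted p = 0.122 and 0.118), under RLE scaling (0.0734), with DESeq2 (0.199) and in a fit of these groups alone (0.248), and without E10 replicate 3 its difference was 0.92, under the minimum of 1. Without that library the difference of Reg4 was 1.75 (adjusted p = 0.00811), and Saa1 had adjusted p = 0.027.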

How the results depend on the processing

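Of 1561 values of 124 followed fold changes under the alternatives, 1432 kept their direction and side of the threshold, 55 fell out of it, 50 came into it and 24 changed sign; fold changes whose libraries all had 10 counts or fewer were not followed. The causes were not tested. The number of the 9 genes called moved by over 1.5 times in these cases. For small intestine E14 against E12 it was 1, and 4 with DESeq2, 0 with these groups alone and 4 with the replicate block. It was 8 in hindstomach E16 against E14 with the replicate block, and 4 in forestomach with either DESeq2 or the replicate block. It was 3 for E13 with E18 WT as the control, 3 for E13 against E10 with these groups alone, and, for adult against E15 effects, 5 with these groups alone and 4 with the replicate block. Leaving out libraries gave 5 to 6 for small intestine E16 against E14, 1 to 2 for forestomach against hindstomach, 3 to 7 for E13 against E10 and 1 to 2 for adult against E15 effects.

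Sign changes concerned fold changes that were not called as reported, except for Reg3b, Retnlb and Pigr at E13, which under the E18 control were -2.94, 3.20 and -1.32. Reg3g, not called against E16, was called there in the other direction (-4.23, adjusted p = 0.038). The others were Reg4 E18 against E16 at -0.04 (groups alone) and -0.001 (31 libraries); Lyz1 forestomach against hindstomach at 0 (RLE) and 0.001 (DESeq2); and Retnlb E13 against E10 at -0.22 (replicate block). Leaving out 1 library at a time gave ranges across 0 of -5.42 to 3.13 for Saa1 E14 against E12 (positive without E12 replicate 2), -0.041 to 0.056 for Reg4 E18 against E16, -0.41 to 0.042 for Lyz1 and -2.08 to 0.33 for Pigr in forestomach against hindstomach, -1.76 to 0.63 for Lcn2 and -0.23 to 1.34 for Retnlb in E13 against E10, -1.28 to 1.90 for Reg3b and -0.35 to 0.99 for Retnlb in the adult (negative without KO replicate 2), -1.35 to 0.98 for Lcn2 in E10 against E15 effects, and -0.93 to 2.23 for Reg3b, -1.36 to 0.46 for Reg4 and -0.062 to 0.82 for Pigr in adult against E15 effects.

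The shared replicate numbers did not pair the libraries: correlations of their deviations ran from -0.08 to 0.021. RLE scaling moved the median of all genes by 0.257 in forestomach E16 against E14 (67.6% of calls higher, from 55.2%). The shift was 0.202 for the E10 against E15 effects (55.8% from 47.9%) and 0.188 for E16 forestomach against small intestine (61.3% from 53.2%). It was 0.145 in forestomach against hindstomach (43.5% from 31.2%). Depth limits Saa1 in the embryo and Lcn2 and Retnlb at E14, where 3 counts or fewer cannot show a level.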

Other observations

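Most genes of a list for MHC class II and the interferon response rose with stage in WT small intestine, and 8 and 10 of them were lower than WT in the libraries labelled deleted at E15 and adult KO. Of its 14 genes, 13 rose from E14 to E16 in WT small intestine and 12 from E16 to E18, with medians of 3.07 and 3.50, and none fell; of all genes 13.7% and 20.1% rose. Immune markers rose over these stages as well, from 0.00369% and 0.00356% of counts at E14 to 0.0160% and 0.0165% at E16 and 0.0324% and 0.0327% at E18. H2-Ab1, a class II beta chain, went from 0.0388 and 0.0746 CPM at E14 to 27.7 and 29.7 CPM at E16 and 354.4 and 351 CPM at E18. After deletion labelled E10, 3 were higher and 5 lower than in WT E16 (23.9% and 27.6% of all genes). After deletion labelled E13, 11 of the 14 were higher than in WT E16 (18.7% of all genes), with H2-Ab1 at 711 and 720 CPM, where immune markers held 0.00578% and 0.00606%. After deletion labelled E15, 8 were lower than in WT E18 and 0 higher (9.70% and 7.79% of all genes), with H2-Ab1 at 42.8 and 39.5 CPM (-3.09, SE 0.53, adjusted p = 1.8e-04). In the libraries labelled adult KO, 10 were lower and 0 higher (20.4% of all genes were called in either direction), with H2-Ab1 at 128 and 130 CPM against 457 and 1272 CPM (-2.87, SE 0.52, adjusted p = 0.0173). Immune markers held 0.00107% and 0.00118% in the libraries labelled deleted at E15, and in the adult 0.00379% and 0.00876% in WT and 0.000566% and 0.000548% in the libraries labelled KO. Their part in these results was not tested.

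Among genes that bring IgA and lymphocytes to the gut, 5 were tested. Ccl25, the chemokine of the small intestine, had 867 and 883 CPM in WT E18 and 427 and 460 CPM in the libraries labelled deleted at E15, and fell in the libraries labelled adult KO from 708 and 453 CPM to 197 and 189 CPM (-1.71, SE 0.24, adjusted p = 0.00973), where Pigr was not called. In the libraries labelled deleted at E13, 4 of 5 were higher and 1, Fcgrt, was lower than in WT E16 (18.7% and 20.8% of all genes).

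Wfdc2, an antimicrobial protease inhibitor and a member of the effector list, had 1630, 2914 and 2137 CPM in the libraries labelled deleted at E10 against 7.89 and 8.04 CPM in WT E16. Replicate 3 of that group, which stood apart in the lectins, lay between the other libraries in this gene.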
